A study of Homo sapiens with 4 samples.

Results

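The APOBEC3 genes encode a family of 7 cytidine deaminases that lie side by side in the human genome, from APOBEC3A to APOBEC3H. All 7 members were taken here because these arrays gave APOBEC3G a level about 7-fold higher in MG than in non-MG cells, so the ratio between the cell types chose the family and is given as a description. Their probes were found by the RefSeq transcript that the array design assigns to each probe. In total 9 probes matched the 7 genes, and on all 4 arrays the scanner software flagged 8 of them, for 6 genes, as well above background. These 6 genes are among 15707 genes or unnamed transcripts measured on all 4 arrays, of 40909 on the array.

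APOBEC3 enzymes turn cytosine into uracil in single-stranded DNA. They are known for restricting retroviruses such as HIV-1, whose Vif protein directs several of them to degradation, and for limiting retroelements. In epithelial tumours, deamination by APOBEC3A and APOBEC3B is linked to clusters of cytosine mutations, and the uracil left in the DNA is removed by base excision repair.

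HCT116, a human colorectal carcinoma cell line, was separated in a transwell migration chamber into cells that crossed the membrane (MG cells) and cells that stayed behind (non-MG cells), and both were enriched by repeating the separation. Each is thus a selected and separately cultured subpopulation of 1 line. Both were exposed to 5 µM 5-azacytidine, a cytidine analogue that traps DNA methyltransferases, for 48 h, or served as the control (called vehicle here). RNA of the 4 conditions was hybridized to 4 one-colour Agilent arrays, 1 per condition.

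With 1 array per condition there is no test between conditions, and every ratio below compares 2 arrays. Its error is the spot error, built from the SD between repeated spots at that brightness. That SD is divided by the square root of the number of spots of the probe. The errors of the 2 arrays, and of the probes of a gene, are then combined. A probe spotted 10 times, as for APOBEC3C, thus has a smaller error. The spot error covers neither culture nor labelling. A gene is called higher or lower past 1.5-fold (0.58 on the log2 scale). Levels are the relative intensity, the background-corrected intensity divided by the 75th percentile of its array, which ranged from 75.2 to 98.7. Between 21382 and 21881 probes of an array were well above background, and no spot was saturated. All arrays lay on 1 slide, non-MG cells in row 1 and MG cells in row 2, vehicle in column 3 and 5-azacytidine in column 4, so the place on the slide and the condition cannot be told apart. The choice of scaling shifted the split of all genes. With vehicle, 892 genes were higher and 1295 lower in MG cells, against 2127 and 601 with median centring and 465 and 328 with normexp background correction. With 5-azacytidine these were 902 and 1151, against 3005 and 397 with median centring and 721 and 182 with normexp. For 5-azacytidine over vehicle they were 298 and 264 in the non-MG cells (198 and 539 with median centring, 55 and 78 with normexp) and 474 and 330 in the MG cells (137 and 49 with normexp). Of 10 epithelial markers, 9 were well above background on each array and VIL1 was not. CDH1, encoding E-cadherin, and CLDN4, a tight junction claudin, were lower in MG cells with vehicle (log2 -0.66 ± 0.03 and -0.73 ± 0.07), and CLDN4 also with 5-azacytidine (-0.90 ± 0.07), although with vehicle CDH1 was within 1.5-fold under normexp and both were under median centring. The paper reports CDH1 mRNA as unchanged in MG cells, on the arrays and by qPCR. The 7 measured epithelial markers other than CDH1 and CLDN4 were within 1.5-fold. With vehicle 0 of 9 were thus higher and 2 lower, beside 5.68% and 8.24% of all genes. With 5-azacytidine 0 were higher and 1 lower, beside 5.74% and 7.33%. The part of the epithelial markers in the APOBEC3 values was not tested. Of 15 leukocyte markers on the array, 6 to 7 passed the background flag on an array, and the defining PTPRC, CD2 and CD3E did so on none. Those that passed on all 4 were CD4 (intensities from 428 to 524), CD79A (551 to 760), CD3D, CD8A, CD14 and GZMB (13.45 to 39.0 for these 4). The summed relative intensity of all 15, with the brightest probe of each, was 16.3 and 15.4 in the non-MG cells and 12.8 and 12.3 in the MG cells. Of 7 fibroblast markers, COL1A1 alone was well above background, and the summed level ran from 0.78 to 1.25.

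APOBEC3B, APOBEC3C, APOBEC3F and APOBEC3G were higher in MG than in non-MG cells past 1.5-fold, both with vehicle and after 5-azacytidine. APOBEC3D and APOBEC3H lay within 1.5-fold in both pairs of arrays, and APOBEC3A had no measurable signal. No member passed 1.5-fold between 5-azacytidine and vehicle in either cell type. The values of all probes are drawn in the plot of APOBEC3 intensities on the 4 arrays.

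**Figure D1:**
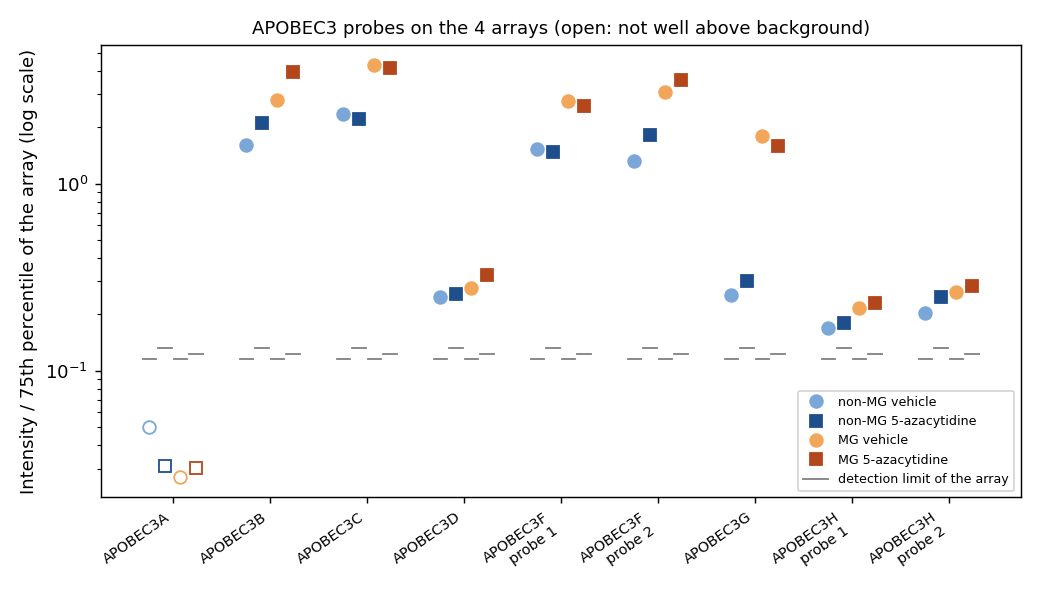
Relative intensity (intensity over the 75th percentile of the array, log scale) of the 9 APOBEC3 probes on the 4 arrays, with grey ticks at the lowest intensity that was well above background on each array. The APOBEC3G probe stands at 0.253 and 0.302 for non-MG cells and at 1.80 and 1.60 for MG cells, and the APOBEC3A probe (open symbols) lies under the ticks on every array.

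APOBEC3G, the member best known for being packaged into HIV-1 particles that lack Vif, had the largest ratio of the family. Its relative intensity was 0.253 in non-MG cells with vehicle, 0.302 in non-MG cells with 5-azacytidine, 1.80 in MG cells with vehicle and 1.60 in MG cells with 5-azacytidine. Both MG arrays were thus above both non-MG arrays, and the 2 arrays of a cell type were near each other. MG over non-MG was 7.10-fold with vehicle (log2 2.83 ± 0.21, spot error), rank 4 of the 15707 genes. With 5-azacytidine it was 5.29-fold (log2 2.40 ± 0.21), rank 11. In the non-MG cells its probe was 2.20 and 2.28 times the lowest intensity well above background, against 15.5 and 13.0 times in the MG cells. Normexp background correction gave log2 ratios of 1.48 with vehicle and 1.32 with 5-azacytidine, so the size of the fold depends on the background correction, while the direction was the same under every alternative run. In such bulk RNA, a smaller share of cells that carry a transcript and less of it per cell cannot be told apart.

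APOBEC3F, a close relative of APOBEC3G that also acts on HIV-1 lacking Vif, was measured by 2 probes for different transcripts. The first probe (for NM_145298) read 1.53 (vehicle) and 1.48 (5-azacytidine) in non-MG cells, and 2.78 and 2.61 in MG cells. The second probe (for NM_001006666) read 1.32 and 1.83 in non-MG cells, and 3.09 and 3.58 in MG cells. By both probes the MG arrays were the brighter ones. Averaged over the probes, MG over non-MG was 2.06-fold with vehicle (log2 1.05 ± 0.07) and 1.86-fold with 5-azacytidine (log2 0.90 ± 0.07). The probes differed from each other, with log2 ratios of 0.86 and 1.23 with vehicle (a difference of 0.37 ± 0.14), and of 0.82 and 0.97 with 5-azacytidine (0.15 ± 0.15).

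APOBEC3C, a single-domain enzyme with weak antiviral activity, was spotted 10 times on each array. Its relative intensity was 2.35 (vehicle) and 2.21 (5-azacytidine) in non-MG cells, and 4.30 and 4.17 in MG cells. The spots ranged from 2.12 to 2.52 in non-MG cells with vehicle, from 2.03 to 2.56 in non-MG cells with 5-azacytidine, from 3.78 to 4.66 in MG cells with vehicle and from 3.81 to 4.57 in MG cells with 5-azacytidine. No spot of a non-MG array reached the lowest spot of an MG array, whereas vehicle and 5-azacytidine spots of the same cells overlapped. MG over non-MG was 1.83-fold with vehicle (log2 0.87 ± 0.03) and 1.89-fold with 5-azacytidine (log2 0.92 ± 0.03). The spots repeat the same labelled RNA and are not replicates of the cells.

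**Figure D2:**
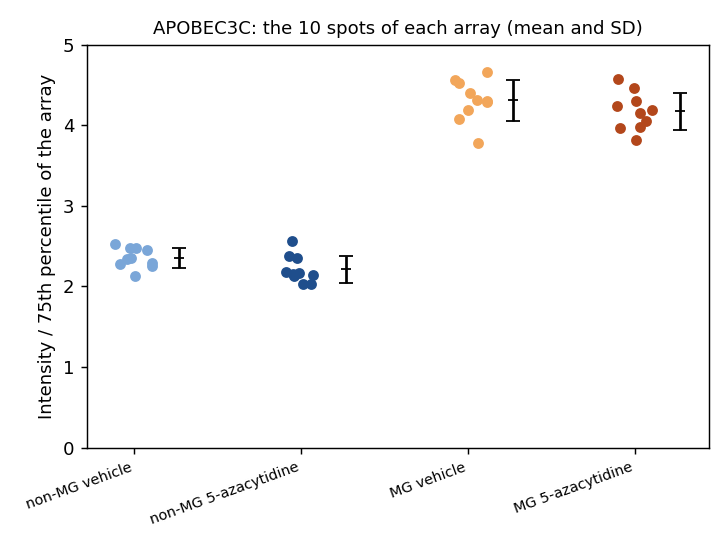
Relative intensity of the 10 APOBEC3C spots of each array, with their mean and SD beside them. The spots of the non-MG arrays reach at most 2.56 and those of the MG arrays start at 3.78.

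APOBEC3B, a nuclear member expressed in many epithelial tumours, read 1.60 in non-MG cells with vehicle, 2.10 in non-MG cells with 5-azacytidine, 2.80 in MG cells with vehicle and 3.98 in MG cells with 5-azacytidine. The MG arrays were again higher, and the 5-azacytidine array was the higher one in each cell type. MG over non-MG was 1.74-fold with vehicle (log2 0.80 ± 0.10) and 1.89-fold with 5-azacytidine (log2 0.92 ± 0.10).

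APOBEC3D and APOBEC3H, both with known activity against HIV-1, gave dim signals. APOBEC3D read 0.247 (vehicle) and 0.258 (5-azacytidine) in non-MG cells, and 0.276 and 0.327 in MG cells. Its log2 ratio was 0.16 ± 0.28 with vehicle, which was smaller than its spot error and turned to -0.0066 under normexp, and 0.34 ± 0.28 with 5-azacytidine. The 2 APOBEC3H probes read 0.168 and 0.203 in non-MG cells with vehicle, 0.179 and 0.249 in non-MG cells with 5-azacytidine, 0.218 and 0.262 in MG cells with vehicle, and 0.229 and 0.284 in MG cells with 5-azacytidine. Their mean log2 ratio was 0.37 ± 0.23 with vehicle and 0.27 ± 0.23 with 5-azacytidine. Under normexp these fell to 0.01 with vehicle and -0.05 with 5-azacytidine. On the scaled intensities both genes were slightly higher in MG cells in both pairs of arrays, by less than 1.5-fold. The dimmest APOBEC3H reading was 1.35 times the lowest intensity well above background.

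APOBEC3A, the most active deaminase of the family and an interferon-induced gene of myeloid cells, failed the background flag on all 4 arrays. Its probe had an intensity of 4.33, 2.33, 2.67 and 2.91 in non-MG cells with vehicle, non-MG cells with 5-azacytidine, MG cells with vehicle and MG cells with 5-azacytidine. At most this was 0.431 times the lowest intensity well above background, so no fold is given.

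Of the 6 measured members, 4 were higher and 0 lower in MG cells with vehicle, where 5.68% of all genes were higher and 8.24% lower. With 5-azacytidine the count was again 4 higher and 0 lower, beside 5.74% and 7.33% of all genes. As the family was picked on this contrast, nothing is read from these counts. The median log2 ratio of the 6 members was 0.84 with vehicle and 0.91 with 5-azacytidine, and that of all genes -0.01 and 0.02. The called members nearest to the threshold were APOBEC3B at 0.80 with vehicle and APOBEC3F at 0.90 with 5-azacytidine, and the uncalled ones nearest to it were APOBEC3H at 0.37 and APOBEC3D at 0.34. Median centring, which moved the median of all genes to 0.18 and 0.27, put APOBEC3D at 0.59 and past the threshold with 5-azacytidine. The family's transcripts are alike in sequence, and whether a probe also binds the RNA of another member was not tested, because probe sequences were not used here.

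The genes beside the cluster played no part in the choice of the family. In the RefSeq order, GTPBP1, SUN2, DNAL4, NPTXR and CBX6 precede APOBEC3A, and CBX7, PDGFB, RPL3, SYNGR1 and TAB1 follow APOBEC3H. With vehicle, 1 of these 10 was higher in MG cells and 0 lower, beside 5.68% and 8.24% of all genes. A count this near those shares says nothing about the neighbours. Their median log2 ratio was -0.06, with a range from -0.43 to 0.60. The one past 1.5-fold was PDGFB, a subunit of platelet-derived growth factor, at 0.60 ± 0.11. With 5-azacytidine 0 of 10 passed in either direction (1 higher with quantile normalization, 3 with median centring), beside 5.74% and 7.33% of all genes. The median was 0.14 (0.40 with median centring, beside 0.27 for all genes), and PDGFB stood at 0.57 ± 0.11. Under normexp PDGFB was within 1.5-fold with vehicle as well. The immediate neighbours, both encoding Polycomb proteins, read 0.02 with vehicle and 0.31 with 5-azacytidine for CBX6, and -0.38 and -0.32 for CBX7.

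**Figure D3:**
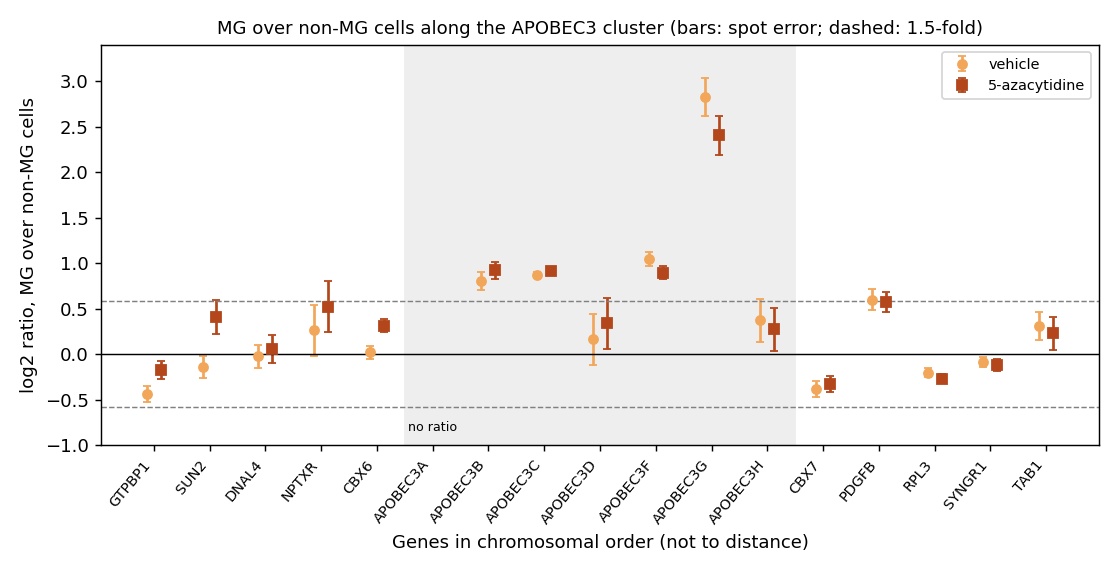
MG over non-MG cells as a log2 ratio for the genes in chromosomal order (equal spacing, not distance), with vehicle (circles) and 5-azacytidine (squares), the spot error as bars and 1.5-fold as dashed lines. The APOBEC3 genes are shaded. APOBEC3G reaches 2.83 and 2.40, while the 10 neighbours lie between -0.43 and 0.60.

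The response to 5-azacytidine was not used to choose the family, although each response shares its vehicle array with the comparison that did. In the non-MG cells 0 of 6 members rose and 0 fell past 1.5-fold, beside 1.90% and 1.68% of all genes. In the MG cells the counts were also 0 and 0, beside 3.02% and 2.10% of all genes. The median log2 ratio of the members was 0.20 in non-MG and 0.08 in MG cells, and that of all genes -0.04 and -0.02. By the mean over the probes of a gene, APOBEC3B had the largest response. It was 1.31-fold in the non-MG cells (log2 0.39 ± 0.10) and 1.42-fold in the MG cells (log2 0.51 ± 0.09), both larger than the spot error and within 1.5-fold. Normexp lowered these log2 ratios to 0.14 and 0.37. In the non-MG cells the second APOBEC3F probe alone read more, 0.47. APOBEC3C read -0.09 ± 0.03 in non-MG and -0.05 ± 0.03 in MG cells. APOBEC3D read 0.07 ± 0.28 and 0.24 ± 0.28, and APOBEC3H 0.19 ± 0.27 and 0.09 ± 0.20, all of them smaller than the spot error.

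The probes of APOBEC3F went apart after treatment. The first read -0.05 ± 0.11 in non-MG and -0.09 ± 0.10 in MG cells, and the second 0.47 ± 0.11 and 0.21 ± 0.09. The difference between the probes was 0.53 ± 0.16 in non-MG and 0.31 ± 0.13 in MG cells, the second probe being the higher one in both. Their mean, 0.21 ± 0.08 and 0.06 ± 0.07, lay between the values of the probes. APOBEC3G read 0.25 ± 0.28 in non-MG cells, smaller than its spot error, and -0.17 ± 0.10 in MG cells. The MG response minus the non-MG response was 0.12 ± 0.14 for APOBEC3B, 0.05 ± 0.04 for APOBEC3C, 0.18 ± 0.39 for APOBEC3D, -0.15 ± 0.10 for APOBEC3F and -0.10 ± 0.33 for APOBEC3H.

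**Figure D4:**
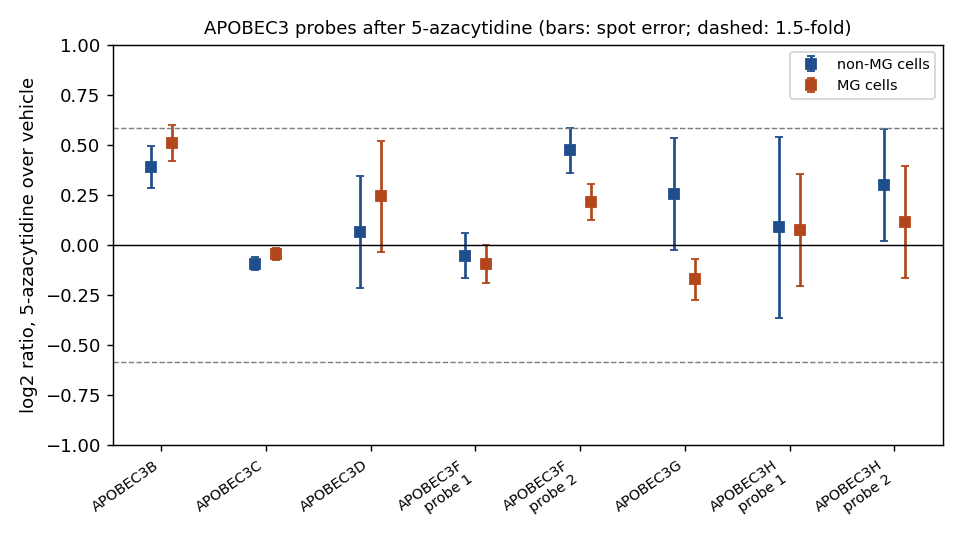
Log2 ratio of 5-azacytidine over vehicle for the 8 measured APOBEC3 probes in non-MG and MG cells, with the spot error as bars and 1.5-fold as dashed lines. All points lie inside the dashed lines, APOBEC3B is above 0 in both cell types, and the APOBEC3F probes lie apart (probe 1 is that for NM_145298).

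APOBEC3H is shown with its promoter because 5-azacytidine lowers the methylation of CpG dinucleotides, and this is the one member whose promoter sequence was at hand. The 250 bases before its RefSeq start (GRCh38.p14, plus strand, chr22:39096994-39097243) are printed in lower case with the CpG in capitals.
APOBEC3H: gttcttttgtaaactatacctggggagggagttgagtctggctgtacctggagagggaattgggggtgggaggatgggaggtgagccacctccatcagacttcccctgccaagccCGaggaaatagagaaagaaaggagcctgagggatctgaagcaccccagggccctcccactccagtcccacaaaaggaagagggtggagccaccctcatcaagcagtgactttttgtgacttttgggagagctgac
This stretch holds 1 CpG, beside a median of 11 over 35116 promoters of the same length, of which 14.7% hold 1 or none. On both strands it has 0 matches to the GC box GGGCGG, which 42.6% of promoters hold. No match says only that these letters are not in this window, and methylation was not measured on these arrays.

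The genes with the most similar profile over the 4 arrays were sought by the root mean square difference in log2 level after centring each gene. For APOBEC3G the 5 nearest were ANXA8L1 (0.153), DCLK1 (0.204), TM4SF1 (0.251), MIA (0.313) and NRIP1 (0.337). ANXA8L1, an annexin, read log2 2.63 with vehicle and 2.41 with 5-azacytidine for MG over non-MG, and DCLK1, a microtubule-associated kinase, 2.96 and 2.62. The nearest to APOBEC3B were TRMT61A and TP53I3, to APOBEC3C AKAP9 and LINC01963, to APOBEC3D POLR1A and ZC3HAV1, to APOBEC3F TOE1 and IL17RB, and to APOBEC3H SLC2A8 and ANAPC4. With 4 arrays such likeness rests on 4 values a gene.

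Few relatives of the family gave signal on these arrays. APOBEC1, the editor of apolipoprotein B mRNA, APOBEC2, APOBEC4 and the cofactor A1CF failed the background flag on each of the 4 arrays. Of the APOBEC1 cofactors measured, SYNCRIP was higher in MG cells with vehicle (log2 0.61 ± 0.05, and 0.56 with quantile normalization, within 1.5-fold), and RBM47 read -0.27 ± 0.09.

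Of 17 genes of uracil excision and repair, all measured, 3 were higher and 0 lower in MG cells with vehicle, beside 5.68% and 8.24% of all genes, with a median log2 ratio of 0.33 beside -0.01 for all genes. FEN1, the flap endonuclease of base excision repair and replication, read 1.003 ± 0.09, APEX2, an apurinic site nuclease, 0.63 ± 0.08, and DUT, which keeps dUTP out of DNA, 0.61 ± 0.06. UNG, the main uracil glycosylase, read 0.55 ± 0.07 and stayed within 1.5-fold. The count of higher genes was 3 with quantile normalization, 4 with normexp, 8 with median centring (which raised that of all genes from 892 to 2127) and 2 with the brightest probe of a gene. DUT was within 1.5-fold with quantile normalization (0.578) and with its brightest probe (0.475), so the 3 genes were not the same ones with quantile normalization. After 5-azacytidine, 2 were higher in MG cells (FEN1 at 0.71 and APEX2 at 0.66) and 0 lower, beside 5.74% and 7.33% of all genes. Quantile normalization gave 1 higher and median centring 6. TDG, a glycosylase for mismatched thymine and uracil, was the one repair gene raised by 5-azacytidine in MG cells (0.81 ± 0.08), beside 3.02% of all genes. In non-MG cells 0 of 17 passed, where 1.90% of all genes were higher and 1.68% lower.

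The 20 genes of NF-kB and interferon signalling, pathways known to act on APOBEC3 transcription, had 0 higher and 4 lower in MG cells with vehicle, beside 5.68% and 8.24% of all genes, and a median of -0.24 beside -0.01. IRF7, a transcription factor of the interferon response, read -1.23 ± 0.09, STAT3 -0.89 ± 0.08, STAT2 -0.65 ± 0.07 and BIRC3, an NF-kB target, -0.63 ± 0.10. Normexp left 1 of them lower, and median centring gave 3 higher and 2 lower. After 5-azacytidine BIRC3 rose in both cell types, with 0.85 ± 0.09 in non-MG and 2.03 ± 0.09 in MG cells, and IRF7 rose in MG cells (1.42 ± 0.09) and read 0.41 ± 0.08 in non-MG cells. Of the 20 genes, 1 was higher and 0 lower with 5-azacytidine in non-MG cells, beside 1.90% and 1.68% of all genes. In MG cells 2 were higher and 0 lower, beside 3.02% and 2.10%. Between the cell types after 5-azacytidine, NFKB1 was higher (0.66) and STAT2 lower (-0.59), NFKB1 being named after its value was seen. Of all genes, 5.74% were higher and 7.33% lower in that comparison. STAT2 was within 1.5-fold under normexp, median centring and the authors' values, and the list had 3 higher and 0 lower with normexp and 6 and 0 with median centring. The part of these pathways in the APOBEC3 values was not tested.

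Of 11 genes of the p53, DREAM and B-MYB/FOXM1 network, known regulators of APOBEC3B, 2 were higher and 0 lower in MG cells with vehicle, beside 5.68% and 8.24% of all genes. These were MYBL2, which encodes B-MYB (0.70 ± 0.10), and RBL1, a pocket protein of the DREAM complex (0.61 ± 0.16), and the median was 0.26. Under normexp RBL1 was within 1.5-fold. After 5-azacytidine, 2 were higher and 0 lower between the cell types, beside 5.74% and 7.33% of all genes. These were MYBL2 at 0.68 and CDKN1A, the p53 target p21, at 0.67. CDKN1A was named after its value was seen and was within 1.5-fold under normexp (0.37). Normexp thus left 1 higher, and median centring gave 6. None of the 11 passed 1.5-fold between 5-azacytidine and vehicle in either cell type. Of all genes, 1.90% were higher and 1.68% lower in the non-MG cells, and 3.02% and 2.10% in the MG cells.

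Of 23 other restriction factors of retroviruses and retroelements, 16 were measured, and 0 were higher and 5 lower in MG cells with vehicle, beside 5.68% and 8.24% of all genes, with a median of -0.24 beside -0.01. IFITM1 read -1.45 ± 0.06, BST2, the tetherin that holds virions on the cell surface, -1.44 ± 0.11, IFITM3 -0.86 ± 0.07 and TRIM5, which binds incoming capsids, -0.76 ± 0.24. IFITM2, named after its value was seen, read -0.76 ± 0.07. Normexp left 4 lower and median centring 3. Between the cell types after 5-azacytidine 0 were higher and 4 lower, beside 5.74% and 7.33% of all genes. The lower ones were IFITM1 at -0.87, BST2 at -0.73, IFITM3 at -0.63 and SERINC5, also named after its value was seen, at -0.88. Quantile normalization left 3 lower and normexp 1, that being IFITM1, and median centring gave 3 higher and 2 lower. BST2 was raised by 5-azacytidine in MG cells (0.70 ± 0.11, but 0.39 and within 1.5-fold under normexp) and read -0.01 in non-MG cells. It was the 1 of 16 higher in MG cells, with 0 lower, beside 3.02% and 2.10% of all genes. In non-MG cells 0 passed (1 lower with normexp), beside 1.90% and 1.68%. Among the 6 components of the ubiquitin ligase that Vif recruits to APOBEC3 proteins, ELOB was higher in MG cells with vehicle (0.59 ± 0.10), 0 were lower (beside 5.68% and 8.24% of all genes), and the median was 0.08, with ELOB within 1.5-fold under normexp and quantile normalization.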

How the data were processed

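RNA of MG and non-MG HCT116 cells with vehicle or 5-azacytidine was measured on 4 one-colour Agilent arrays, 1 per condition. The groups come from the sample titles. For the RNA, RNAiso Plus is named in the labels and an RNeasy kit in the methods. The authors deposited Agilent Feature Extraction 11.5.1.1 output, with a linear, background-corrected intensity per spot and no normalization between arrays. They also deposited a table of log2 values, each probe centred on its median over the 4 arrays, whose normalization is not stated. On 24161 shared probes its differences between arrays equalled those computed here within 0.01 after a constant offset per array.

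The log2 intensity minus the 75th percentile of its array was computed. Outlier spots were left out (5 of 50599 probes), spots of a probe were averaged, and so were the probes of a gene that were well above background on all 4 arrays (by most of their spots). This kept 19808 probes, of which 16629 were named by matching transcript accessions to RefSeq (GRCh38.p14). The array design refers to another build, so no probe coordinates are given. The spot error starts from the median SD between spots of probes spotted 10 times, by brightness. This SD was divided by the square root of the number of spots of a probe. It was then combined over both arrays of a ratio and over the probes of a gene. The number of arrays limits the precision.

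The members and lists were chosen with earlier results of these data known, and some listed genes are not reported here and were left out of the list counts. Named were all members, the listed genes past 1.5-fold with vehicle between the cell types or in either 5-azacytidine comparison (at most 4 a list), the defining cell type markers and the genes most like each member. Alternatives were normexp (offset 50), quantile normalization, median centring, the study's filter, no filter, a floor at the detection limit, only the brightest probe of a gene, the authors' log2 values, and 2-fold or 1.4-fold as threshold. Each APOBEC3F probe alone was added after seeing the data. The procedure was tested on simulated data. R 4.3.3, limma 3.58.1, Python 3.11.15, numpy 2.4.6 and pandas 2.3.3 were used.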

Additional observations from a re-analysis of the deposited data

Results flagged for a closer look

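The response of APOBEC3G to 5-azacytidine had opposite signs in the 2 cell types. On the log2 scale 5-azacytidine over vehicle was 0.25 ± 0.28 in non-MG and -0.17 ± 0.10 in MG cells (spot errors), a difference of -0.43 ± 0.30. The non-MG response was smaller than its spot error and read 0.04 under normexp, so its sign is not settled. Neither response passed 1.5-fold, and with 1 array per condition the difference was not tested.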

How the results depend on the processing

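The 4 members higher in MG cells with vehicle became 2 at a 2-fold threshold (APOBEC3F and APOBEC3G), and the 4 with 5-azacytidine became 1 (APOBEC3G). Between 5-azacytidine and vehicle, the count rose from 0 to 1 in MG cells at a 1.4-fold threshold (APOBEC3B). With no filter it rose from 0 to 1 in non-MG cells. No filter also raised the count for MG over non-MG with vehicle from 4 to 5. The gene added by no filter was APOBEC3A, lower in both comparisons, which had no array well above background. No called member changed direction under the alternatives run. Of 192 member ratios under the alternatives listed above for all members, 164 moved by less than their spot error and 28 by more. Most of the 28 were under normexp or median centring. Many of the 164 could not move, so their number is no measure of stability. The filters and the floor left the measured members' probes as they were. The brightest probe could change only APOBEC3F and APOBEC3H. The authors' values differ from those here by little more than a constant per array. The ratio of APOBEC3G in MG over non-MG cells ran from 1.48 to 3.02 with vehicle and from 1.32 to 2.66 with 5-azacytidine. APOBEC3F by its first probe alone gave 0.86 with vehicle and by its second 1.23. Over all genes with vehicle, the study's filter gave 1557 higher and 2386 lower, no filter 3425 and 6436, and the 2-fold threshold 131 and 250. The numbers of genes tested were 18915, 40909 and 15707, and the cause was not tested. With a single slide, slide could not enter as a block. Normexp was run on the median spot signal. No paired analysis was possible because each condition has 1 array. Signal over background limits APOBEC3A, APOBEC3D, APOBEC3H and the non-MG level of APOBEC3G.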

Other observations

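CD14 and CD3D, leukocyte markers with dim probes, were higher after 5-azacytidine in both cell types. CD14 read 0.87 ± 0.28 on the log2 scale in non-MG and 1.002 ± 0.38 in MG cells, and CD3D 0.81 ± 0.28 and 0.88 ± 0.24. These were 2 of 6 leukocyte markers measured in each cell type, and 0 were lower. Of all genes, 1.90% were higher and 1.68% lower in the non-MG cells, and 3.02% and 2.10% in the MG cells. Under normexp all 4 of these ratios lay within 1.5-fold. Their part in the APOBEC3 values was not tested. SUN2, a nuclear envelope protein encoded near the cluster, fell by 0.79 ± 0.16 with 5-azacytidine in the non-MG cells and read -0.24 ± 0.16 in the MG cells. Under normexp it read -0.36 in the non-MG cells, within 1.5-fold. Of the 10 neighbours, 0 were higher and 1 lower with 5-azacytidine in the non-MG cells, beside 1.90% and 1.68% of all genes. In the MG cells 0 passed in either direction, beside 3.02% and 2.10%.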
